A study of Homo sapiens with 52 samples.

Results

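The direct difference between senescence begun by plasma membrane damage and senescence begun by DNA damage was followed on days 1 and 2 in WI-38 cells. WI-38 is a line of normal human fibroblasts from lung with a limited number of divisions. The genes described are the 14115 of 59408 whose deposited mean normalized count was at least 10 in all 4 tables that set PMD-Sen or DDR-Sen on either day against untreated cells. Of these, 14114 were tested, since the reads of IGFBP5 could not be recovered.

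PMD-Sen cells had been exposed to 0.0090% sodium dodecyl sulfate (SDS), which as a detergent makes holes in the outer membrane of the cell, and DDR-Sen cells to 250 nM doxorubicin (DXR), a topoisomerase poison that breaks DNA. Either agent was given for 24 h and washed out, and RNA was collected 1 or 2 days after the wash, so that these early groups hold cells on the way to senescence. Untreated cells were young cells of the same line that received neither agent. Each of the 5 groups had 2 libraries from independent samples, and all came from 1 cell line of 1 donor. Both inducers were compared at 1 concentration each, and whether the doses match in strength cannot be told apart from the agents themselves.

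The deposited tables hold 1 mean per gene over 4 libraries. The whole reads of each library were recovered from these means, and the libraries of a group are named the deeper and the shallower, because the recovered libraries carry no replicate number. Normalized reads are reads divided by a size factor of the library, which puts all 10 libraries on 1 scale. For 3217 of the tested genes (22.8%) the reads of DDR-Sen day 1 could not be split between its libraries, and then only their mean is given, which is also the case for 252 genes in PMD-Sen day 1 and 227 in DDR-Sen day 2. Fewer residual degrees of freedom were used for such genes.

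The libraries held 15.2 to 51.3 M counted reads, fewest in the untreated cells. The libraries of a group correlated at 0.98 or more over 10882 genes on the log2 scale, and those of both inducers on the same day at 0.9655 at most. Between any 2 groups the highest correlation was 0.9848, above the lowest within a group. In PMD-Sen day 1, DDR-Sen day 1 and DDR-Sen day 2 the split of reads partly required similar libraries, which favours agreement within these groups. Replicates differed by more than counting noise in every group. Fibroblast markers were abundant, led by COL1A1, COL1A2 and VIM, although TWIST2 had only 2 reads. Of the markers of endothelial, epithelial, neural and blood cells, KRT8, KRT19 and TEK, which fibroblast cultures can express, reached 30.6, 81 and 106 CPM (reads scaled to a fixed library total). SNAP25, TUBB3, VWF, MAP2, CSF1R and CD14 reached 4.42, 3.89, 3.08, 3.03, 2.13 and 1.94 CPM. The others stayed at 1.02 CPM or less, among them OLIG2 with no read, CD3D and CD3E with 1 each and KRT5 with 4 over all libraries.

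As background, the p53 protein is stabilized after DNA breaks and switches on a set of targets that includes the cyclin-dependent kinase inhibitor p21, encoded by CDKN1A. p21 keeps the retinoblastoma family proteins active, and these hold the genes for DNA synthesis and mitosis shut. Promoters of mitotic genes often carry a CHR element and CCAAT boxes, bound by the DREAM and NF-Y complexes, and those of DNA synthesis genes carry E2F sites. A torn plasma membrane lets calcium in and is closed by annexins and by the ESCRT-III complex. Later, senescent fibroblasts secrete proteases, cytokines and growth factors, and they lose lamin B1.

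On day 1 a large part of the transcriptome differed between the inducers. At an adjusted p under 0.05 by limma, which is what called means below, 5935 of 14114 genes (42.1%) differed, 3018 with the higher level in PMD-Sen (21.4%) and 2917 with the lower level (20.7%). On day 2 there were 4567 (32.4%), with 2588 higher in PMD-Sen (18.3%) and 1979 lower (14%). The balance of directions depends on the scaling, since on day 2 there were 2183 higher and 2383 lower with library totals and 2234 and 2385 with upper quartiles. Without the deeper library of DDR-Sen day 2 or of PMD-Sen day 2, 2059 and 2487 genes were called on day 2, and without the deeper library of DDR-Sen day 1, 2838 of 10897 tested were called on day 1. Those of at least 1 on the log2 scale numbered 1025 (7.26%) on day 1 and 608 (4.31%) on day 2. All differences below are PMD-Sen minus DDR-Sen on the log2 scale, given with the standard error of the fit over 2 libraries per group. With 2 libraries in a group, p-values rest on the spread between these samples. A group whose reads could not be split added no spread for that gene. Thus CDKN1A, DCN, ACTG1 and ENO1 drew their own spread only from untreated cells and PMD-Sen day 2. The shares of all genes called higher and lower on each day are the background for the counts of every list below. A gene was refitted without a library only if its reads had been split in that group. Calls said to hold without any single library held in the fits that could be made, which were 4 for ACTG1 and 8 for ACTA2.

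The days shared much of this difference. Of the genes higher in PMD-Sen, 1874 were called on both days, 62.1% of those of day 1 and 72.4% of those of day 2. Of those lower in PMD-Sen, 1498 were called on both days, 51.4% and 75.7%. Only 6 and 22 genes were called in opposite directions on the 2 days. The difference was the smaller on day 2 for 65.3% of the genes that were higher on both days and for 71.7% of those that were lower. The difference itself changed between the days for 284 genes (2.01%), upward in favour of PMD-Sen for 214 (1.52%) and downward for 70 (0.496%). When the libraries were scaled by their totals, the change was upward for 119 genes and downward for 168, so this split depends on the scaling. Without single treated libraries the number of such genes was 29 to 187, and it was lowest without the deeper library of DDR-Sen day 1, where 10897 genes could be tested.

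**Figure D1:**
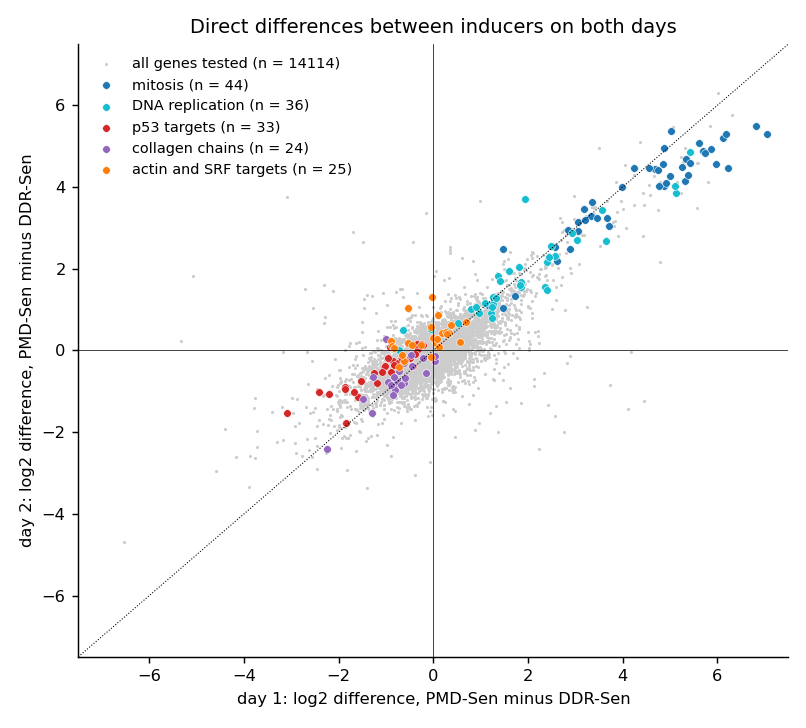
Each dot is a gene, with its log2 difference (PMD-Sen minus DDR-Sen) on day 1 along the horizontal axis and on day 2 along the vertical axis, and the dotted line marks equal differences. The mitosis genes lie at the upper right with medians of 4.75 and 4.21, the p53 targets lie left of zero and above the dotted line, and the actin genes spread upward on day 2.

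The side of untreated cells on which each difference lay was read from 4 comparisons that share the same untreated libraries. Of the 3018 genes higher in PMD-Sen on day 1, 958 were above untreated cells in PMD-Sen with no call in DDR-Sen, 908 were below untreated cells in DDR-Sen with no call in PMD-Sen, and 105 (0.744% of all genes tested) were called on opposite sides of the untreated level. Of the 2917 lower genes, 885 were above untreated cells in DDR-Sen alone, 826 were below them in PMD-Sen alone and 175 (1.24%) lay on opposite sides. On day 2 the genes on opposite sides numbered 57 (0.404%) and 50 (0.354%). Of all genes tested, 16.2% were higher and 16% lower than untreated cells in PMD-Sen on day 1, and 16.2% and 16.6% in DDR-Sen. On day 2 these shares were 14.7% and 11.7% in PMD-Sen and 10.3% and 10.9% in DDR-Sen.

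Genes of mitosis differed widely between the inducers. All 44 members tested of this list were called higher in PMD-Sen on both days, with a median of 4.75 on day 1 and 4.21 on day 2. The smallest difference on day 1 was 1.16, in ECT2, which encodes an activator of RhoA in cell division. Against untreated cells the median member was at -0.46 in PMD-Sen and -5.09 in DDR-Sen on day 1. All members stayed higher in PMD-Sen in each fit without 1 library that could be made. KIF20A could not be refitted without a library of DDR-Sen day 1, nor MKI67 without one of DDR-Sen day 2. In bulk libraries, fewer dividing cells and less RNA per cell cannot be told apart.

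UBE2C, which encodes a ubiquitin-conjugating enzyme of the anaphase-promoting complex, stood at 747 and 726 normalized reads in the untreated libraries. PMD-Sen held 538 and 636 on day 1 and 496 and 499 on day 2, and DDR-Sen held 3.14 and 5.44 and then 12.4 and 11.9. DDR-Sen was thus far below every other library, with 5 and 5 recovered reads in its day 1 libraries. The difference was 7.05 ± 0.42 on day 1 (adjusted p = 1.3e-06) and 5.30 ± 0.32 on day 2 (adjusted p = 2.8e-06), the greatest of the list on day 1. UBE2C lies at chr20:45812644-45816952 (GRCh38) with no other tested gene within 1000 bases.

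CDC20, the activator of the same complex, had 2128 and 1933 normalized reads in untreated cells, 1210.4 and 1604 in PMD-Sen and 17 and 23.9 in DDR-Sen on day 1. On day 2 PMD-Sen had 1661 and 1366 and DDR-Sen 31 and 53. The groups of the inducers did not overlap on either day, as was so with PMD-Sen higher for 30.3% of all genes on day 1 and 35.8% on day 2, and with PMD-Sen lower for 30.7% and 33%. The differences were 6.11 ± 0.46 and 5.21 ± 0.39. CDK1, the kinase that drives entry into mitosis, was at 911 and 893 in untreated cells, 729 and 938 in PMD-Sen and 9.43 and 12 in DDR-Sen on day 1. By day 2 CDK1 was at 729 and 709 in PMD-Sen and at 32 and 32.4 in DDR-Sen. Its difference was 6.23 ± 0.38 and then 4.46 ± 0.28, and the change between days was not called (adjusted p = 0.086), although it was called without the deeper library of PMD-Sen day 1 (0.021) and by limma-trend with a pseudocount of 1 (0.0062). MKI67, which encodes the proliferation marker Ki-67, differed by 6.81 ± 0.53 and 5.49 ± 0.41.

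Other genes of cell division with the greatest differences had few reads in DDR-Sen. The centrosome kinase gene NEK2 had 5 and 3 recovered reads in the DDR-Sen libraries on day 1 and 3 and 3 on day 2, against 270 and 191 and 551 and 380 in PMD-Sen. Its difference was 6.02 ± 0.50 and 6.31 ± 0.53. CENPA, the centromeric histone H3 variant, had 2 and 2 reads in DDR-Sen on day 1 and 2 and 4 on day 2, against 168 and 131 and 267 and 174 in PMD-Sen. PBK, a mitotic kinase, the kinesin genes KIF18B and KIF20A, and DEPDC1 and TROAP differed by 5.01 to 6.30 on day 1 and by 4.56 to 5.77 on day 2.

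The promoters of these genes were searched for motifs already known from mitotic and DNA synthesis genes. The lists hold known genes of these kinds, so the shares are a description and not independent support. In the RefSeq promoter windows of 250 bases before to 50 after the start (GRCh38.p14), the CHR motif TTTGAA on either strand was present in 67.6% of the 37 mitosis promoters found and in 9.66% of the 10211 found for all genes tested. The CCAAT motif was present in 73% and 36.4%, and both motifs in 51.4% and 4.01%. E2F motifs, TTTGGCGC or TTTCCCGC on either strand, were in 5.41% of the mitosis promoters, in 50% of the 32 found for DNA replication genes and in 3.66% of all. The first pair of motifs can share letters, since a CHR may run into a reversed CCAAT box. For 84% of 9991 promoters checked, the last 30 bases of the window lay in an annotated transcript of the gene. Matches are letters only, and no binding was measured.

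The sequences below are the 110 bases before the start of 3 mitosis genes and 3 DNA replication genes, read 5′ to 3′ on the strand of the gene. They were chosen after their values had been seen. CDC20, PLK1, CCNB2, MCM6 and GINS2 show the motifs at genes that were higher in PMD-Sen, and PCNA did not follow its list. Capitals mark CHR and CCAAT motifs in the first 3 lines, an E2F motif and CCAAT boxes in MCM6 and PCNA, and an E2F motif in GINS2. CDC20 is at chr1:43358871-43358980 on the plus strand, PLK1 at chr16:23678779-23678888 on the plus strand, CCNB2 at chr15:59105036-59105145 on the plus strand, MCM6 at chr2:135876444-135876553 on the minus strand, GINS2 at chr16:85688955-85689064 on the minus strand and PCNA at chr20:5126623-5126732 on the minus strand.
CDC20: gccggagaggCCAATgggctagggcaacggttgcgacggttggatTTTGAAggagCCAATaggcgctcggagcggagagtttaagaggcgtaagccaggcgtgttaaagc
PLK1: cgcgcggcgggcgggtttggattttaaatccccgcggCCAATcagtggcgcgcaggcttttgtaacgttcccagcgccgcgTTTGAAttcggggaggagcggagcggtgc
CCNB2: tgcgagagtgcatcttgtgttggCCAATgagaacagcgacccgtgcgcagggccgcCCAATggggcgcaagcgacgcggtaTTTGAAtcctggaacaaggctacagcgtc
MCM6: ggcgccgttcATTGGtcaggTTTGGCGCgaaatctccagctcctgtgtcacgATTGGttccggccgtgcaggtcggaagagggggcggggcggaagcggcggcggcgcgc
GINS2: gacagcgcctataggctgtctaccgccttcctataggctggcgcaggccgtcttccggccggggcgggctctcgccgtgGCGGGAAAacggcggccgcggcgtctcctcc
PCNA: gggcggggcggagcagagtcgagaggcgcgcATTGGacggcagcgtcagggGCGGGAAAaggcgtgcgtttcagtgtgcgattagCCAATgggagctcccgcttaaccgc

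Genes of DNA replication were higher in PMD-Sen as well, with 2 exceptions on day 1. Of 36 members tested, 33 were higher and 2 lower on day 1 (median 1.71), and 35 were higher and none lower on day 2 (median 1.57). The largest difference was in RRM2, the small subunit of ribonucleotide reductase. It held 4152 and 3754 normalized reads in untreated cells, 1600.4 and 2309 and 2840.1 and 2397 in PMD-Sen on days 1 and 2, and 36.5 and 59.9 and 79.5 and 103 in DDR-Sen. Its difference was 5.41 ± 0.38 on day 1 and 4.85 ± 0.33 on day 2. The licensing and origin genes CDC6, CDC45, MCM10, ORC1 and CDT1 differed by 2.41 to 5.11 on day 1, and MCM2 to MCM7 by 1.25 to 1.82. CLSPN, a mediator of the replication checkpoint, differed by 5.12 ± 0.38.

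PCNA and TYMS were the 2 exceptions. PCNA, the sliding clamp of the replication fork, had 2780.4 and 2592 normalized reads in untreated cells, 2006 and 1920.2 in PMD-Sen and a mean of 3274 in DDR-Sen on day 1. On day 2 it had 2651 and 2528 in PMD-Sen and 2551 and 2628 in DDR-Sen. The difference went from -0.74 ± 0.06 (adjusted p = 1.7e-05) to 0.00 ± 0.06, and this change was called (adjusted p = 0.0057). PCNA was the only member of the list called above untreated cells in DDR-Sen on day 1, by 0.28 (adjusted p = 0.0067).

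TYMS, which encodes thymidylate synthase, was below untreated cells in both inducers, and the untreated libraries held 1071 and 1023 normalized reads. PMD-Sen held 298 and 331 and DDR-Sen 511 and 443 on day 1. The order had turned on day 2, with 575 and 596 in PMD-Sen and 392 and 431 in DDR-Sen. The difference went from -0.63 ± 0.10 to 0.51 ± 0.09, with a called change of 1.14 ± 0.14 (adjusted p = 0.0054). TK1, the thymidine kinase of S phase, moved apart further. It was at 774 and 857 in PMD-Sen against a mean of 212 in DDR-Sen on day 1, and at 1271 and 1279.9 against 74.3 and 129.7 on day 2. Its change was 1.77 ± 0.23 (adjusted p = 0.0073), and another tested gene, AFMID, lies within 1000 bases of TK1.

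**Figure D2:**
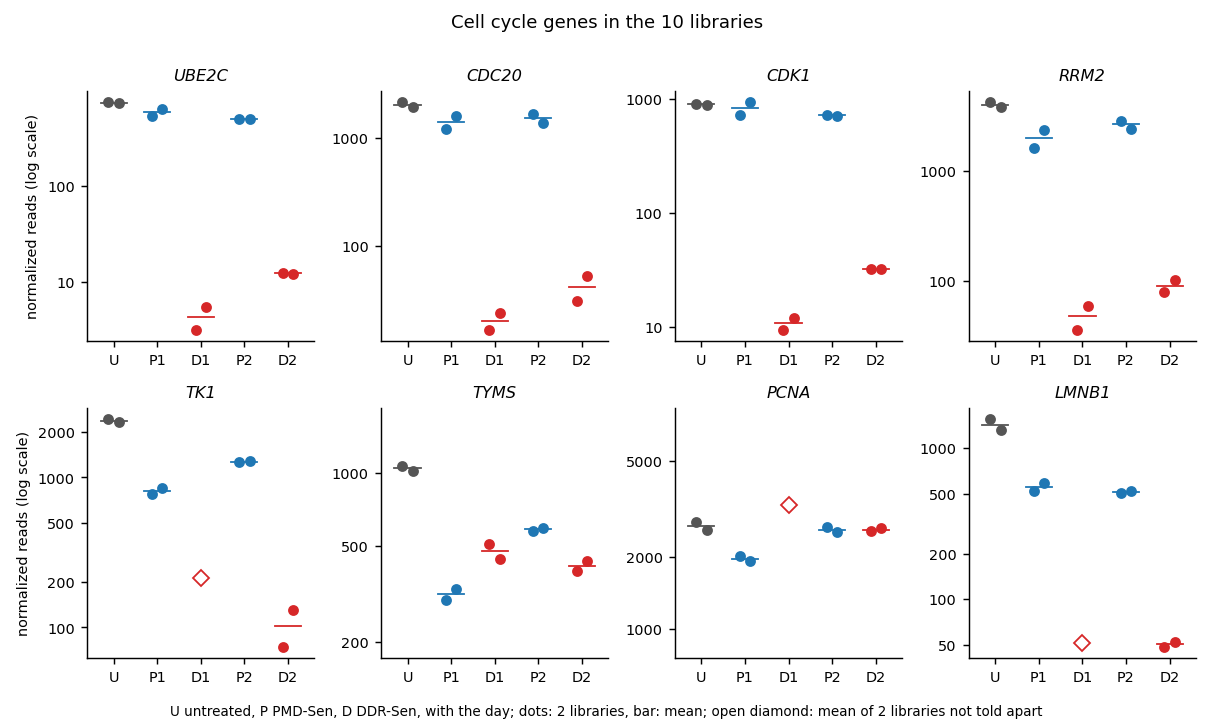
Normalized reads on a log scale for 8 cell cycle genes in the 10 libraries, with dots for libraries, bars for group means and open diamonds for means of 2 libraries that could not be told apart. UBE2C, CDC20, CDK1 and RRM2 were lowest in DDR-Sen on both days, whereas TYMS and PCNA were lower in PMD-Sen than in DDR-Sen on day 1.

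Genes of homologous recombination and Fanconi repair, which mend DNA breaks and crosslinks mainly in dividing cells, followed the replication genes. Of 26 members, 21 were higher in PMD-Sen and none lower on each day, with medians of 1.96 and 1.66. RAD54L, a motor protein of strand exchange, differed by 4.01 ± 0.34 and 3.45 ± 0.35. XRCC3, PALB2, MRE11, FANCC and FANCE were not called on either day, with differences between -0.26 and 0.25. The core members BRCA1 and BRCA2 differed by 2.36 and 2.35 on day 1.

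Of 15 genes for nuclear lamina and high mobility group proteins, 10 were higher in PMD-Sen on day 1 and 12 on day 2, and none was lower. LMNB1, which encodes lamin B1, had 1551 and 1318 normalized reads in untreated cells, 521 and 591 in PMD-Sen and a mean of 51.7 in DDR-Sen on day 1. On day 2 PMD-Sen held 508 and 520.3 and DDR-Sen 48.5 and 51.9. Both inducers were below untreated cells, PMD-Sen at -1.39 and DDR-Sen at -4.79 on day 1, and the difference between them was 3.40 ± 0.20 and 3.34 ± 0.22. HMGB2, a chromatin protein of dividing cells, differed by 2.09 ± 0.12 and 2.40 ± 0.13, and TMPO, which encodes a lamina-associated protein, by 1.72 ± 0.12 and 1.56 ± 0.12.

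Regulators of the G1 phase were mixed, with 16 higher and 5 lower in PMD-Sen among 26 on day 1, and 13 and 4 on day 2, with 15 of 21 and 11 of 17 calls held without any single library. Of all genes, 21.4% were higher and 20.7% lower on day 1, and 18.3% and 14% on day 2. In the list, E2F8, CDKN2C, E2F1 and RBL1, themselves genes of the cycle, were among the higher. E2F8 had few reads in DDR-Sen on day 1, a mean of 1.09 normalized reads against 34.2 and 29 in PMD-Sen. The cyclin D2 gene CCND2 was lower, at -1.65 ± 0.15 and -0.90 ± 0.12. CDKN2A, which encodes p16, was at 889.7 and 973 normalized reads in PMD-Sen and 707 and 839 in DDR-Sen on day 1. Its difference of 0.28 ± 0.10 on day 1 (adjusted p = 0.038) was not called without either library of PMD-Sen day 1, the deeper one of DDR-Sen day 1 or either one of DDR-Sen day 2 (adjusted p 0.053 to 0.38 in these), and on day 2 it was 0.17 ± 0.10 (adjusted p = 0.19). CDKN2B, which encodes p15, was at 648 and 767 and 753 and 754 on day 1 and at 257 and 291 and 553 and 608 on day 2, when its difference was -1.09 ± 0.12.

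Targets of p53 gave the opposite picture, and a changing one. Of 33 members tested, 32 were lower in PMD-Sen on day 1 and none was higher (median -0.92). On day 2, 22 were lower and 1 was higher (median -0.38). Between the days the difference rose for 17 members and fell for none, against 1.52% of all genes tested that rose. DDR-Sen had 29 members above untreated cells on both days and 0 and 1 below. PMD-Sen had 4 above and 15 below on day 1, and 12 above and 1 below on day 2. Without any single library, 30 of the 32 calls of day 1, 17 of the 23 of day 2 and 9 of the 17 of the change held.

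CDKN1A had 23802 and 25741 normalized reads in untreated cells. On day 1 PMD-Sen had a mean of 21684 and DDR-Sen one of 79646. On day 2 PMD-Sen had 31505 and 32918 and DDR-Sen a mean of 61652. Thus the level of PMD-Sen was close below the untreated libraries on day 1 (-0.19, adjusted p = 0.043) and above them on day 2 (0.38, adjusted p = 0.0037). The difference between inducers went from -1.88 ± 0.06 to -0.94 ± 0.06, and its change was called (adjusted p = 0.005). No spread within PMD-Sen day 1 or either DDR-Sen group entered these standard errors, because the reads there could not be split.

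CYFIP2, which encodes a partner of the WAVE actin regulators, had the greatest day 1 difference of the list. It was at 466 and 398 in untreated cells, at 156 and 168 in PMD-Sen and at 1441 and 1279 in DDR-Sen. On day 2 PMD-Sen was back at 404 and 424, within the range of the untreated libraries, while DDR-Sen held 1274 and 1115. The difference went from -3.09 ± 0.14 to -1.53 ± 0.10. MDM2, the ubiquitin ligase that degrades p53, was at 3897 and 3819 in untreated cells and at 3122 and 2995 in PMD-Sen on day 1 and 4603 and 4546 on day 2. DDR-Sen had a mean of 7303 on day 1 and 7006 and 6432 on day 2, so that both inducers were above untreated cells on day 2.

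The gap closed for some members and not for others. CCNG1, which encodes cyclin G1, went from -0.92 ± 0.07 to 0.08 ± 0.07, at 6589 and 6151 normalized reads in PMD-Sen and 5820.3 and 6206 in DDR-Sen on day 2. FDXR, a mitochondrial reductase, and BTG2, an antiproliferative gene, narrowed from -2.20 to -1.08 and from -1.86 to -0.89. GDF15, a stress-secreted relative of TGF-beta, had differences of -1.85 ± 0.09 and -1.77 ± 0.09, with no called change (adjusted p = 0.8). It was at 991 and 1208 in PMD-Sen and a mean of 3875 in DDR-Sen on day 1, with 1153 and 1057 in untreated cells. The exception on day 2 was PERP, a gene of desmosomes and cell death, at 0.14 ± 0.05, a call that was lost in 8 of the 10 fits without 1 library (adjusted p up to 0.21).

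**Figure D3:**
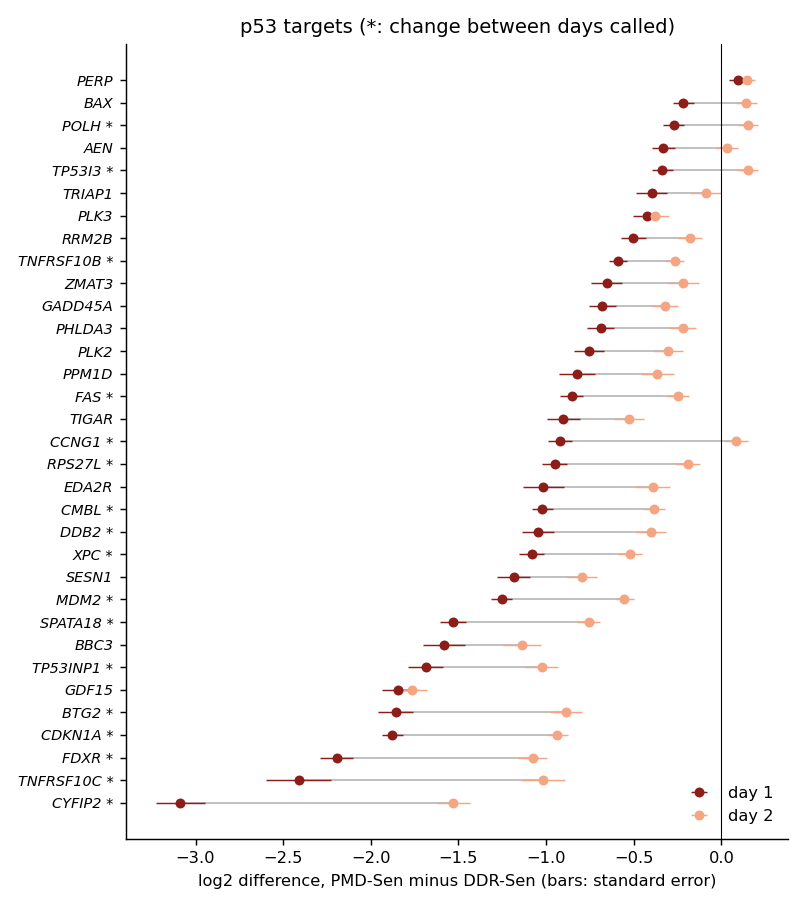
Log2 differences (PMD-Sen minus DDR-Sen) of the 33 p53 targets on day 1 (dark) and day 2 (light) with standard errors, sorted by day 1. All but PERP were called below zero on day 1, and the asterisks mark the 17 whose difference changed between the days, all toward or past zero.

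Genes of the extracellular matrix were lower in PMD-Sen. Of 24 collagen chains, 19 were lower on day 1 and 18 on day 2, and none was higher (medians -0.75 and -0.67). COL1A1, the main chain of type I collagen, differed by -1.49 ± 0.11 and -1.20 ± 0.11, COL1A2 by -0.81 ± 0.13 and -0.97 ± 0.13, and COL3A1 by -1.27 ± 0.13 and -0.65 ± 0.12. COL14A1, a fibril-associated collagen, had the greatest difference. It held 239.8 and 222 normalized reads in untreated cells, 30.4 and 43.6 and 18.8 and 31.3 in PMD-Sen and 187 and 138 and 144 and 114 in DDR-Sen, and differed by -2.24 ± 0.30 and -2.42 ± 0.30. COL6A3, COL10A1, COL15A1 and COL5A3 were not called on either day.

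Of 30 genes for laminins, elastic fibres and matricellular proteins, 26 were lower and 2 higher in PMD-Sen on day 1, and 19 lower and 2 higher on day 2. DCN, which encodes the proteoglycan decorin, was at 42087 and 34253 normalized reads in untreated cells and at means of 11963 in PMD-Sen and 36896 in DDR-Sen on day 1. On day 2 PMD-Sen had 11849 and 16302 and DDR-Sen a mean of 37676. DDR-Sen was thus not called against untreated cells (adjusted p = 0.86), and PMD-Sen was below it, at -1.67 on day 1 (adjusted p = 0.00016). ELN, which encodes elastin, was at 38.9 and 30.5 in PMD-Sen and 196 and 147 in DDR-Sen on day 1, a difference of -2.29 ± 0.38, and on day 2 its difference was -0.67 ± 0.28 and not called (adjusted p = 0.088). Both members that were higher encode an enzyme or a protein of wound beds: LOXL1, a lysyl oxidase, at 0.34 ± 0.07 and 0.22 ± 0.07 (the day 2 call lost without either of 2 libraries, adjusted p up to 0.24), and TNC, tenascin-C, at 0.92 ± 0.15 and 1.22 ± 0.15.

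These matrix genes are also markers of fibroblasts, and 9 of 11 fibroblast markers tested were lower in PMD-Sen on day 1 and 8 on day 2. The summed level of the markers was 23470 to 28780 CPM in untreated cells, 14200 to 14550 and 13040 to 14010 in PMD-Sen on days 1 and 2, and 26870 to 27000 and 23610 to 23990 in DDR-Sen. VIM and S100A4 were the 2 that were higher in PMD-Sen, by 0.41 and 0.64 on day 1. The leukocyte list of 10 markers summed to 2.02 to 3.113 CPM in PMD-Sen and 3.684 to 3.81 in DDR-Sen on day 1, with 1.273 to 1.316 in untreated cells, and the epithelial list of 9 to 47.97 to 51.93 and 77.57 to 79.79, with 59.9 to 74.07. CD14, of the leukocyte list, had 12 and 15 recovered reads in PMD-Sen and 88 and 47 in DDR-Sen on day 1. The part of cell composition in the matrix differences was not tested.

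Proteases that cut the matrix were split. Of 23 proteases and inhibitors, 9 were higher and 6 lower in PMD-Sen on day 1, against 21.4% and 20.7% of all genes. On day 2, 6 were higher and 7 lower, against 18.3% and 14%. MMP1, the interstitial collagenase, was at 4026 and 6798 normalized reads in untreated cells and at means of 57461 in PMD-Sen and 12617 in DDR-Sen on day 1. On day 2 MMP1 was at 22696 and 19778 and 6133 and 6062. Its difference was 2.19 ± 0.17 and 1.80 ± 0.18. SERPINB2, an inhibitor of urokinase, was at 136 and 146 in untreated cells, 1544 and 1889.7 in PMD-Sen and 267 and 299 in DDR-Sen on day 1, and at 760.3 and 635 and 279 and 315 on day 2. Both inducers were above untreated cells, and the difference fell from 2.60 ± 0.13 to 1.24 ± 0.15. That fall was called (adjusted p = 0.0089), but not without the deeper library of DDR-Sen day 1 (0.075) or the shallower one of DDR-Sen day 2 (0.066). PLAU, urokinase itself, was higher in PMD-Sen by 1.17 ± 0.08 and 0.48 ± 0.08. ADAMTS5, an aggrecanase, and MMP2, a gelatinase, were lower, at -1.56 and -0.53 on day 1.

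Contractile genes had calls in both directions on day 1 and in 1 direction on day 2. Of 25 genes for actin and for targets of SRF, the factor that reads the actin pool, 7 were higher and 10 lower in PMD-Sen on day 1 (median -0.02), and 13 were higher and none lower on day 2 (median 0.22). The sign of the day 1 median depends on the scaling, being 0.03 with library totals. The difference rose between days for 9 of them and fell for none, against 1.52% and 0.496% of all genes tested, and 7 of the 9 calls held without any single library. Against untreated cells, 19 were below in PMD-Sen and 18 in DDR-Sen on day 1. On day 2, 14 were above and 2 below in PMD-Sen, whereas 2 were above and 5 below in DDR-Sen.

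ACTA2, the smooth muscle actin of myofibroblasts, was at 8570.4 and 9378 normalized reads in untreated cells. On day 1 it was at 2420.0 and 2218 in PMD-Sen and at a mean of 3378 in DDR-Sen. On day 2 it was at 13876 and 15655 and 6382 and 8150.3, so that PMD-Sen had gone from the lowest group to the highest. The difference went from -0.54 ± 0.12 to 1.03 ± 0.11, a change of 1.57 ± 0.16 (adjusted p = 0.0047). The day 1 value alone was not called when no filter on low values was used (adjusted p = 0.10), and FAS and ACTA2-AS1 lie over ACTA2 or within 1000 bases of it, while the strand setting of the counting is not given in the sources used here.

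ACTG2, the gamma smooth muscle actin, was at 19929 and 17974 in untreated cells, 6868 and 7164 in PMD-Sen and a mean of 7120.0 in DDR-Sen on day 1, a difference that was not called (-0.02 ± 0.08, adjusted p = 0.83). On day 2 the levels were 24101 and 27569.9 and 10261 and 10739, a difference of 1.30 ± 0.07. LMOD1, an actin nucleator of smooth muscle, TAGLN, an actin cross-linker, and TPM2, a tropomyosin, went from -0.89, -0.88 and -0.84 to 0.22, 0.11 and 0.07, each with a called change, and none of the 3 was called on day 2 (adjusted p 0.12, 0.14 and 0.48). The cytoplasmic actin gene ACTG1 was higher in PMD-Sen on both days by 0.68 ± 0.07 and 0.70 ± 0.07, with no called change (adjusted p = 0.96).

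Of 27 growth factors and their binding proteins, 6 were higher and 9 lower in PMD-Sen on day 1, against 21.4% and 20.7% of all genes, and 4 and 11 on day 2, against 18.3% and 14%. Without any single library, 13 of the 15 calls of day 1 and 9 of the 15 of day 2 held. VEGFC, which drives lymphatic growth, was at 2466 and 2945 normalized reads in untreated cells, 7341 and 8642 in PMD-Sen and 2661 and 3004 in DDR-Sen on day 1. On day 2 it was at 4504 and 3959.9 and 2010.3 and 2368. Its difference was 1.49 ± 0.11 and 0.96 ± 0.12. AREG and EREG, ligands of the EGF receptor, were higher on day 1 by 0.94 and 1.26. TGFB2, BMP4 and PDGFD, ligands of fibroblasts, and IGFBP7 were lower on day 1, at -1.73, -1.50, -1.42 and -1.19. TGFB2 went from 168 and 126 normalized reads on day 1 to 520.4 and 715 on day 2 in PMD-Sen, with 912 and 954 in untreated cells, and its difference on day 2 was -0.57 ± 0.13, a call lost without the deeper library of either day 2 group (adjusted p 0.069 and 0.059).

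Few cytokines reached the mean of 10. Of 30 members of the cytokine list, 15 were tested. On day 1, 3 were higher and 4 lower in PMD-Sen, against 21.4% and 20.7% of all genes. On day 2, 1 was higher and 6 were lower, against 18.3% and 14%. Only 1 of the 7 calls of day 1 and 4 of the 7 of day 2 held without any single library. IL6 was at 70.3 and 110.2 normalized reads in untreated cells, 29.6 and 55.2 and 22.8 and 35.6 in PMD-Sen and 62.9 and 47.9 and 85.7 and 60.5 in DDR-Sen. The difference was -0.60 ± 0.36 on day 1 (adjusted p = 0.2) and -1.37 ± 0.34 on day 2 (adjusted p = 0.012), and the day 2 call was lost without the deeper library of either group (0.11 in both). CCL2 had overlapping libraries on both days, with differences of 0.20 ± 0.32 and -0.07 ± 0.30. VCAM1, an adhesion molecule for leukocytes, had 1071 and 655 in untreated cells, 14 and 7.26 in PMD-Sen and 296 and 114 in DDR-Sen on day 1. It differed by -4.17 ± 1.42 and -2.61 ± 0.67, but the libraries within a group lay far apart, and the day 1 call was lost without either library of PMD-Sen or the deeper one of DDR-Sen (0.10 to 0.18) and the day 2 call without the deeper library of either group (0.093 and 0.11). LIF, a cytokine of the IL6 family, and CSF1, a growth factor of macrophages, were lower in PMD-Sen on day 2, at -1.27 ± 0.17 and -0.57 ± 0.10.

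The immediate early genes, whose transcription follows signals within minutes, had 8 higher and 2 lower in PMD-Sen among 25 on day 1. On day 2 they had 4 higher and 11 lower. Shares over all genes were 21.4% and 20.7% on day 1, and 18.3% and 14% on day 2, for the list calls given here. Of these calls, 6 of 10 on day 1 and 5 of 15 on day 2 held without any single library. The median went from 0.06 to -0.29. KLF2 had the greatest day 1 difference, at 1245 and 1685 normalized reads in PMD-Sen and 463 and 656 in DDR-Sen, 1.41 ± 0.17. EGR1, EGR3, NR4A2, NR4A3 and KLF4 were lower on day 2, at -1.50 to -0.77, and the calls of EGR3, NR4A2 and NR4A3 were lost without 1 to 4 single libraries (adjusted p up to 0.12). Only KLF4 had a called change between the days, -0.80 ± 0.17 (adjusted p = 0.038), which was lost in 7 of the 10 fits that left out a library, so the turn of the list was not shown for its other members.

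Stress response lists of the endoplasmic reticulum and of amino acid supply had more members lower than higher in PMD-Sen. Of 21 folding genes, 14 were lower and 2 higher on day 1, and 15 and 1 on day 2, with 12 of 16 and 9 of 16 calls held without any single library. XBP1, a transcription factor of the unfolded protein response, was at 3304 and 2936 normalized reads in untreated cells, 1214 and 1378 in PMD-Sen and a mean of 2652 in DDR-Sen on day 1, with a difference of -1.05 ± 0.08. HSPA5, the chaperone BiP, differed by -0.82 ± 0.08 and -0.52 ± 0.08. Of 26 ATF4 and amino acid genes, 9 were lower and 2 higher on day 1 (median -0.16), and 17 lower and 1 higher on day 2 (median -0.57), with 6 of 11 and 13 of 18 calls held. ATF4 itself was lower, at -0.66 and -0.57, ATF3 at -1.29 ± 0.15 and -0.76 ± 0.13, and PSAT1, an enzyme of serine synthesis, was at 0.01 ± 0.22 on day 1 (adjusted p = 0.97) and -1.16 ± 0.20 on day 2. PHGDH, the first enzyme of that route, was higher in PMD-Sen on day 1, 0.78 ± 0.15, and was not called on day 2, -0.27 ± 0.15 (adjusted p = 0.2). Its change of -1.05 ± 0.21 was called (adjusted p = 0.032), but not in 8 of the 10 fits that left out 1 library (up to 0.13).

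Lysosomal genes had 13 lower and 4 higher in PMD-Sen among 24 on day 1, and 14 and 2 on day 2, and 11 of 17 and 7 of 16 of these calls held without any single library. Over all genes the shares were 20.7% lower and 21.4% higher on day 1, and 14% and 18.3% on day 2. FUCA1, a lysosomal fucosidase that is also a known p53 target, stood apart within the list. It was at 35.1 and 48.6 normalized reads in untreated cells, 59.9 and 82.8 and 66.1 and 63.4 in PMD-Sen and 473 and 454 and 401 and 384 in DDR-Sen. The difference was -2.78 ± 0.16 and -2.59 ± 0.14, and the other called members lay between -0.80 and 0.68 on day 1. GLB1, the gene of the beta-galactosidase used to stain senescent cells, was lower in PMD-Sen, at -0.36 ± 0.06 and -0.22 ± 0.06, with the day 2 call lost without any of 3 libraries (adjusted p up to 0.14). CTSL, a cysteine cathepsin, was at 9323 and 9479 in PMD-Sen and 6026 and 5671 in DDR-Sen on day 1 and at 4539.7 and 4618 and 4261 and 4292 on day 2, and its difference changed from 0.68 to 0.10 (adjusted p = 0.0057).

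Chaperones and genes of glucose use had more members higher than lower in PMD-Sen. Of 18 heat shock genes, 11 were higher and 3 lower on day 1 and 11 and 2 on day 2, and of 26 genes of glycolysis and hypoxia, 12 and 2 on day 1 and 13 and 3 on day 2. Of these calls 13 of 14 and 7 of 13 for heat shock, and 10 of 14 and 10 of 16 for glycolysis and hypoxia, held without any single library. HSPD1, a chaperonin of mitochondria, was at 11201 and 11338 normalized reads in PMD-Sen and 6549 and 6654 in DDR-Sen on day 1, with 11047 and 10542 in untreated cells. Against untreated cells it was at 0.06 in PMD-Sen (adjusted p = 0.46) and -0.71 in DDR-Sen. ENO1, an enolase, differed by 0.78 ± 0.05 and 0.83 ± 0.05. SLC2A1, the glucose transporter GLUT1, was lower in PMD-Sen on day 1, -0.77 ± 0.07.

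Membrane repair genes had calls in both directions on day 1. Of 29 tested, 9 were higher and 7 lower in PMD-Sen on day 1, against 21.4% and 20.7% of all genes. On day 2, 9 were higher and none lower, against 18.3% and 14%. The medians were -0.01 and 0.11. Without any single library, 8 of the 16 calls of day 1 and 5 of the 9 of day 2 held. The day 1 median is 0.04 with library totals. ANXA2, an annexin of the plasma membrane, was higher by 0.25 ± 0.05 and 0.57 ± 0.05, and ANXA1 by 0.62 ± 0.07 and 0.45 ± 0.07. ANXA4, another annexin, was lower on day 1, at -0.44 ± 0.07, and S100A10, the partner of ANXA2, was higher on day 2 by 0.69 ± 0.09. SYT7, a synaptotagmin that senses calcium in lysosome exocytosis, had 26 and 5.6 normalized reads in untreated cells, 52.2 and 68.3 in PMD-Sen and 23.9 and 27.2 in DDR-Sen on day 1. Its difference of 1.18 ± 0.36 (adjusted p = 0.022) was lost in 3 of the 10 fits that left out 1 library (up to 0.16), and on day 2 it was -0.09 ± 0.41 (adjusted p = 0.89). CHMP4B, a core subunit of ESCRT-III, was at 3637 and 3673 in untreated cells, 3424 and 3331 in PMD-Sen and a mean of 3904 in DDR-Sen on day 1. Its difference of -0.21 ± 0.06 was called (adjusted p = 0.015) but not without the shallower library of PMD-Sen day 1 (0.074), and on day 2 it was -0.01 ± 0.06. CHMP4A had at most 2 reads in a library and was not tested.

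Antioxidant genes of the NRF2 list had 8 higher and 3 lower in PMD-Sen among 22 on day 1, and 5 and 3 on day 2, with 7 of 11 and 4 of 8 calls held without any single library. AKR1C1, an aldo-keto reductase, was at 606 and 663 normalized reads in untreated cells, 4021 and 3403 in PMD-Sen and 933 and 1259 in DDR-Sen on day 1. By day 2 it was at 921 and 828 and 432 and 453, and the difference was 1.80 ± 0.12 and then 0.98 ± 0.16. The classical members NQO1 and HMOX1 were not called on either day. Of all genes, 21.4% were higher and 20.7% lower on day 1, and 18.3% and 14% on day 2. Sterol and fatty acid genes had 5 higher and 4 lower among 31 on day 1, fewer than the 21.4% and 20.7% of all genes, and 2 and 10 on day 2, of which 4 of 12 calls held without any single library. Interferon-stimulated genes had 2 and 4 among 22 and then 0 and 4, with 3 of 6 and 2 of 4 calls held, and with IFI6 lower, at -1.48 ± 0.25 and -1.35 ± 0.23. MT2A, a metallothionein, was higher by 0.66 ± 0.13 and 0.69 ± 0.13, and the 13 mitochondrially encoded genes lay between -0.27 and 0.17 on both days.

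**Figure D4:**
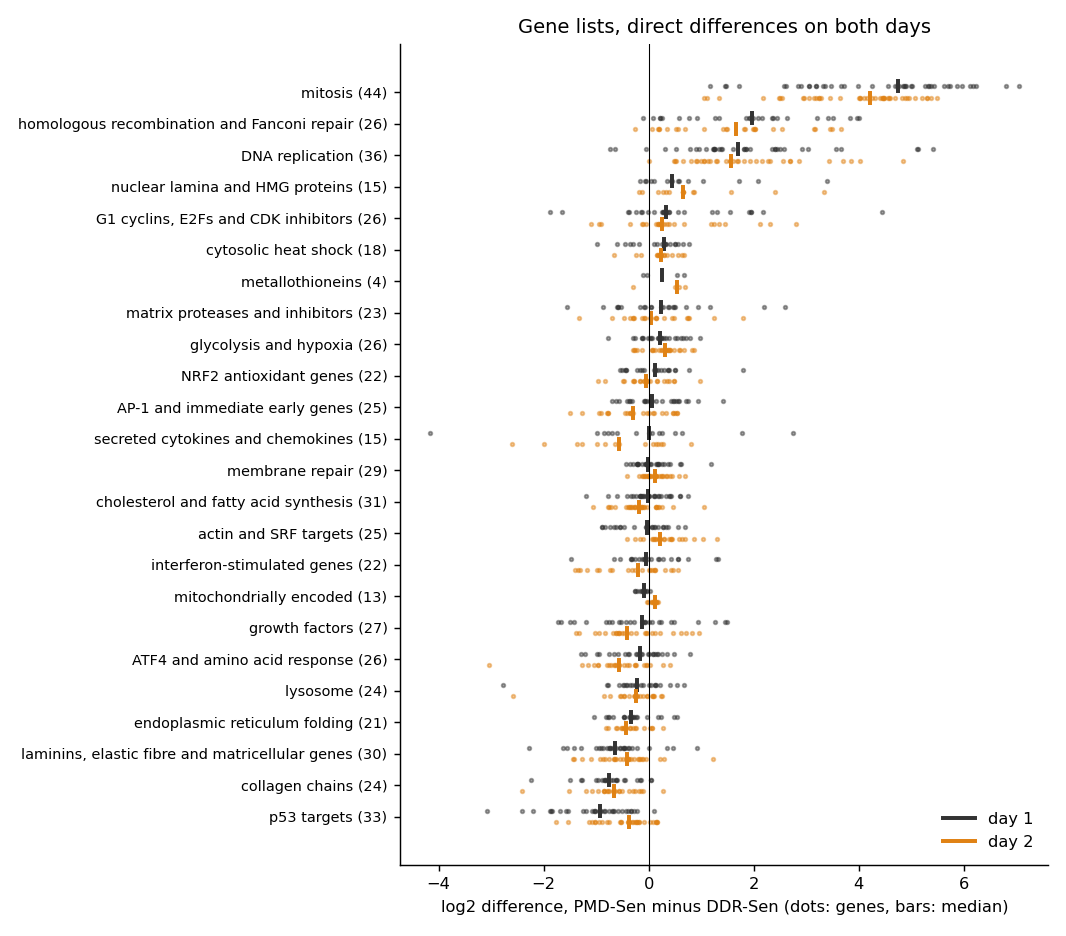
Log2 differences (PMD-Sen minus DDR-Sen) of the members of 24 gene lists on day 1 (dark) and day 2 (orange), with the number of genes tested in brackets, dots for genes and bars for medians. Mitosis, repair and replication genes lie to the right, p53 targets, collagens and laminins to the left, and the medians of most other lists lie within 0.7 of zero.

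Genes on opposite sides of the untreated level were led by SULF2, which encodes an extracellular sulfatase of heparan sulfate. It was at 45.8 and 61.6 normalized reads in untreated cells, 13.2 and 10.2 in PMD-Sen and a mean of 1155 in DDR-Sen on day 1. On day 2 it was at 36.5 and 47 and 1218 and 935. The differences were -6.53 ± 0.48 and -4.70 ± 0.25, a fold of 92.6 and 26, and on day 2 the difference of PMD-Sen from untreated cells was not called (adjusted p = 0.53). SULF2 lies at chr20:47657406-47786627 (GRCh38) with NCOA3 within 1000 bases. TSPAN11, a tetraspanin gene, and VWCE differed by -3.87 ± 0.16 and -3.76 ± 0.29 on day 1.

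IGFBP2, a binding protein for insulin-like growth factors, was on opposite sides on both days. It was at 895 and 562 normalized reads in untreated cells, 273 and 299 and 266 and 313 in PMD-Sen and 2081 and 1309 and 2116 and 1426 in DDR-Sen. Despite the spread within groups, the inducers did not overlap, and the difference was -2.57 ± 0.32 and -2.60 ± 0.28. NRTN, the neurotrophic factor neurturin, and A2M, a protease inhibitor of plasma, also lay on opposite sides on both days. They differed by -2.51 ± 0.27 and -1.90 ± 0.09 on day 2.

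Among the other genes that were much lower in PMD-Sen, CYFIP2, RGS5 and ANK1 also lay on opposite sides of untreated cells on day 1. RGS5, a regulator of G protein signals, was above untreated cells in DDR-Sen, at 1719 and 1926 and 1430.0 and 1519 normalized reads on days 1 and 2. In PMD-Sen it was at 220.3 and 167 and 321 and 329, with 278 and 297 in untreated cells, and the difference was -3.18 ± 0.13 and -2.18 ± 0.10. Against untreated cells PMD-Sen was at -0.53 on day 1 (adjusted p = 0.032) and 0.18 on day 2 (adjusted p = 0.39). ANK1, an ankyrin gene, was likewise above untreated cells in DDR-Sen on both days, by 1.15 and 1.05, and PMD-Sen was below them on day 1 (-1.72) and was not called on day 2 (-0.15, adjusted p = 0.51). The difference of ANK1 changed from -2.87 ± 0.19 to -1.19 ± 0.12 (adjusted p = 0.0061).

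In further genes the level was lower in PMD-Sen, with DDR-Sen closer to untreated cells. GDF6, a ligand of the bone morphogenetic protein family, was at 848 and 633 normalized reads in untreated cells, 106 and 77 and 166 and 214 in PMD-Sen and 599 and 605 and 864 and 825 in DDR-Sen. Its difference was -2.67 ± 0.22 and -2.18 ± 0.15. GASK1B, a Golgi-associated protein gene, TMEM176B, ITGA8, which encodes an integrin chain, and SLC7A14 differed by -2.83, -2.46, -2.04 and -3.72 on day 1 and by -1.78, -2.34, -1.95 and -1.97 on day 2. All 4 were called below untreated cells in PMD-Sen on both days, at -4.71 to -1.13, while DDR-Sen was at -0.996 to 0.65. DDR-Sen was also called below untreated cells for ITGA8 on both days (-0.54 and -0.65) and for SLC7A14 on day 1 (-0.996). The value of 0.65 was GASK1B on day 2 and was called (adjusted p = 0.0084), so that GASK1B lay on opposite sides on that day.

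**Figure D5:**
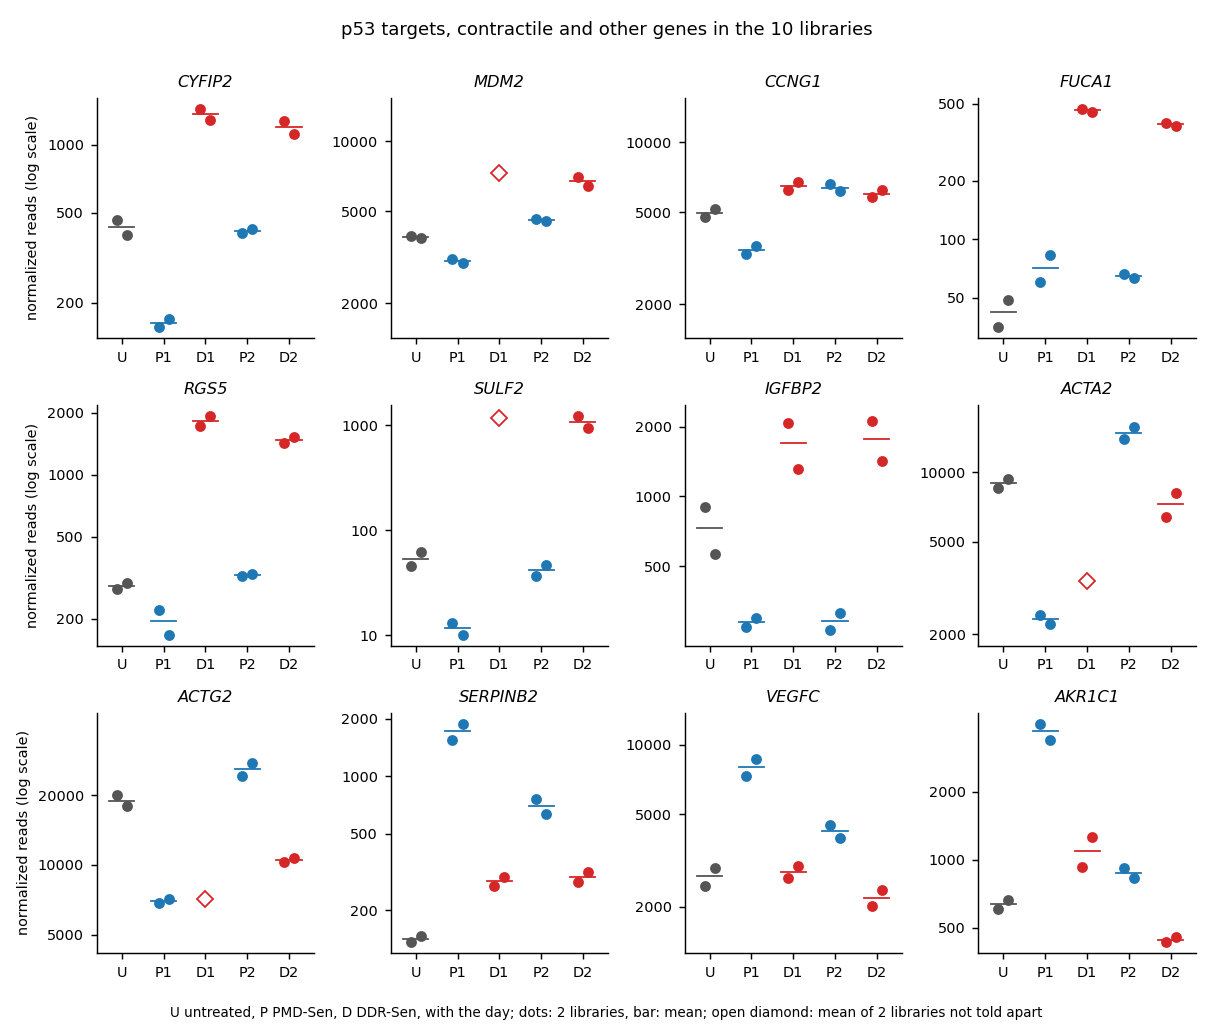
Normalized reads on a log scale for 12 genes in the 10 libraries, with dots for libraries, bars for group means and open diamonds for means of 2 libraries that could not be told apart. SULF2, RGS5, IGFBP2 and FUCA1 were highest in DDR-Sen on both days, SERPINB2, VEGFC and AKR1C1 in PMD-Sen on day 1, and ACTA2 and ACTG2 in PMD-Sen on day 2.

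Some of the largest values lie in genes with a close neighbour, and whether such neighbours share reads was not tested. EEF1B2, which encodes a translation elongation factor, had 4042 and 3586 normalized reads in untreated cells and 81.7 and 79.9 in PMD-Sen on day 1, but 3390.1 and 2339.8 on day 2. Its neighbour NDUFS1, a subunit gene of respiratory complex I less than 1000 bases away (chr2:206114817-206159444, against chr2:206159609-206162928 for EEF1B2), was at 336 and 1227 in untreated cells and 692 and 903 in PMD-Sen on day 1. In DDR-Sen NDUFS1 was at 89.9 and 83.8 on day 1 and 121 and 110.3 on day 2, while EEF1B2 was at 4619 and 2241 and 1579 and 3688. The assignment of reads between EEF1B2 and NDUFS1 was not tested, so the day 1 differences of -5.34 ± 0.88 and 3.13 ± 0.65 remain uncertain. The same holds for PIP4K2B (-2.47 ± 0.44 on day 2) and its neighbour CWC25, whose libraries lay far apart within groups.

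GSDMD, which encodes the pore-forming gasdermin D, had 12 and 6 recovered reads in PMD-Sen on day 1 and 435 and 390 in DDR-Sen. On day 2 the libraries of DDR-Sen had 17 and 159 reads, far apart within the group, against 291 and 327 in PMD-Sen. As normalized reads these were 17.6 and 172 against 166 and 233, which overlap. The day 2 difference was not called by limma (adjusted p = 0.054). The difference was -5.08 ± 1.20 on day 1 and 1.83 ± 0.65 on day 2, and the day 1 call was lost without the deeper library of PMD-Sen (adjusted p = 0.076). Of 105 named genes and neighbours with a RefSeq position, 27 had another tested gene over them or within 1000 bases, such as RGS5 with NUF2.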

How the data were processed

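The labels give RNA sequencing of WI-38 cells in 26 groups, of which 5 groups with 2 libraries each were used. Per the labels, reads were processed with Trim Galore, HISAT2, HTSeq or featureCounts and DESeq2 on GRCh38 (hg38); versions and the role of each counter are not given in the sources used here. The authors deposited, for each comparison with untreated cells, a mean of normalized counts per gene over the 4 libraries compared, which was used here as a signal. Their log2 fold change, its standard error, test score, p-value and adjusted p-value were not used. Such a mean is a weighted sum of whole reads. From 9 tables, the reads of each library were therefore recovered as the whole numbers that give the deposited means. In PMD-Sen day 1, DDR-Sen day 1 and DDR-Sen day 2, several pairs of whole numbers could give the same mean. A pair was then kept if it alone lay within the imbalance between libraries seen in genes already settled. Agreement of the libraries in these groups thus partly follows from this choice, and the checks given next concern untreated reads only. Of the 9 tables, 8 gave the same untreated reads as the first for 100% of low-value genes, and untreated reads solved in 2 separate sets of 3 tables were the same for 99.92% of genes. IGFBP5 could not be settled and was left out. Where reads could not be split between the libraries of a group, the group mean stood for both and 1 residual degree of freedom was taken off.

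The recovered reads were fitted with voom weights in limma 3.58.1 (R 4.3.3), with median-of-ratios size factors and all 10 libraries in 1 fit, and p-values were adjusted by Benjamini-Hochberg over 14114 genes with a threshold of 0.05. Tests made for deposited counts were not run, since the deposited values are means. Each library held 15.2 to 51.3 M reads. Read recovery used Python 3.11.15 with NumPy 2.4.6. Alternatives were other scalings, filters, pseudocounts, limma-trend and leaving out each library.

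The genes and lists were chosen with earlier results of these data known. The naming rule took genes the study names, the 8 greatest differences per day and direction (called, deposited mean of at least 100 in all 4 tables, no overlap of libraries), the greatest called member of each list per day and direction, the 5 greatest changes between days in each direction, and the 3 greatest differences per day on opposite sides of untreated cells. Other genes named are members of the lists and neighbouring genes, chosen after their values were seen. A gene on the sex chromosomes that the rule took is not given. Sequences and positions are from RefSeq (GRCh38.p14).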

Additional observations from a re-analysis of the deposited data

Results flagged for a closer look

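The 10 genes listed here are CDKN1A, which the study names, and those with the greatest called changes between the days under the naming rule. For each, the difference between the inducers was not the same on both days by a test of the change itself. Other named genes had a called change as well and are not repeated here, among them ACTG2 (adjusted p = 0.002), CYFIP2 (0.0044) and PCNA (0.0057). In addition, 1 further gene named by the rule is not given. The change is day 2 minus day 1 of the log2 difference PMD-Sen minus DDR-Sen, with limma's adjusted p over 14114 genes. CDKN1A could not be refitted without a library of PMD-Sen day 1 or of either DDR-Sen group. TK1, ACTA2 and AC097451.1 could not be refitted without a library of DDR-Sen day 1.

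Upward changes were found in 6 of them. CDKN1A, the gene of p21, changed by 0.94 ± 0.08 (adjusted p = 0.005). GSDMD, the gene of gasdermin D, changed by 6.92 ± 1.37 (adjusted p = 0.03), a call lost in 5 of the fits that left out 1 library (adjusted p up to 0.15). EEF1B2, the elongation factor gene whose reads may be shared with its neighbour, changed by 5.57 ± 0.96 (adjusted p = 0.018), which was lost without either library of PMD-Sen day 1 (0.12 and 0.092). TK1, the thymidine kinase gene, changed by 1.77 ± 0.23 (adjusted p = 0.0073). ANK1, the ankyrin gene, changed by 1.68 ± 0.22 (adjusted p = 0.0061). ACTA2, the smooth muscle actin gene, changed by 1.57 ± 0.16 (adjusted p = 0.0047).

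Downward changes were found in the other 4. AC097451.1 changed by -1.96 ± 0.22 (adjusted p = 0.005), at 1361 and 1197 normalized reads in PMD-Sen on day 1 and 176 and 151 on day 2, with 159 and 97.1 in untreated cells. SERPINB2, the urokinase inhibitor gene, changed by -1.36 ± 0.20 (adjusted p = 0.0089). TAF4, which encodes a subunit of TFIID, changed by -1.31 ± 0.25 (adjusted p = 0.028), and FLRT3, which encodes a membrane protein of cell adhesion, by -1.27 ± 0.25 (adjusted p = 0.029). Both of these calls were lost in 6 of the fits that left out 1 library (adjusted p up to 0.13 for TAF4 and 0.15 for FLRT3).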

How the results depend on the processing

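Of the counts over all genes, those for days 1 and 2 stayed within 1.5 times the reported ones (4013 to 6107) under other scalings, filters on low values, limma-trend and fits of 1 day alone. With a log2 difference of at least 1 required as well, 1025 genes remained on day 1, 608 on day 2 and 55 for the change. With no filter on low values, 37943 genes were tested and the change was called for 564. With library totals the share of calls higher in PMD-Sen went from 50.9% to 59.8% on day 1 and from 56.7% to 47.8% on day 2 (2234 higher and 2385 lower on day 2 with upper quartiles), and the share of changes that rose went from 75.4% to 41.5%.

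Leaving out 1 library gave 2838 to 6037 genes on day 1, 2059 to 4649 on day 2 and 29 to 328 for the change. On day 1 the counts were 2838 and 3532 without the deeper and the shallower library of DDR-Sen day 1, where the genes still tested held 4246 of the calls. On day 2 they were 2487 without the deeper library of PMD-Sen day 2, 2059 without the deeper one of DDR-Sen day 2, and 3006 and 3020 without those of DDR-Sen day 1, where 3178 calls were among the genes still tested. For the change they were 173 and 93 without the deeper and shallower library of PMD-Sen day 1, 187 and 88 for PMD-Sen day 2, 29 and 70 for DDR-Sen day 1, and 70 and 78 for DDR-Sen day 2. Fewer libraries and genes entered these fits, since a gene whose reads could not be split in a group was not refitted without its libraries. Any other cause was not tested.

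For the named genes and lists, 2679 values without 1 library kept their side of the threshold, 114 lost a call and 27 gained one, and no call turned its direction. No paired analysis was possible because the recovered libraries carry no replicate number. With 2 libraries a group, and 1 fewer degree of freedom for genes whose reads could not be split, small differences of DDR-Sen day 1 are the least certain.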
